A study of Mus musculus with 8 samples.

Results

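The genes described here are the contractile apparatus of the mammary myoepithelium and the receptor that sets it in motion. The 10 members were chosen by name: 8 contractile genes (Acta2, Actg2, Myh11, Cnn1, Tagln, Mylk, Myl9 and Tpm2), the basal cell transcription factor Trp63 and the oxytocin receptor Oxtr. They were measured by 16 of the 41174 probes of the array and make up 10 of the 18749 gene symbols its probes could be matched to. The rule is a list of names and uses no measured value, but earlier results of these data were known when it was written.

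Myoepithelial cells are the outer, basal layer of the mammary epithelium and wrap the alveoli and ducts. They share smooth muscle actin, smooth muscle myosin and their regulators with vascular smooth muscle, although they are epithelial cells. When a pup suckles, oxytocin from the pituitary binds its receptor on these cells, calcium is released inside them, myosin light chain kinase phosphorylates the myosin regulatory light chain, and the contracting cells press milk out of the alveoli.

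The 8 dams were C57/Bl6 females whose No. 4 mammary glands were taken on lactation day 1. Of them 4 were wild type (WT) and 4 lacked Th-POK (knockout, KO). Th-POK, encoded by Zbtb7b, is a zinc finger transcription factor. The methods describe a knockout line and name no tissue-restricted driver, and the age of these dams was not given in the sources used here. Each dam gave 1 one-colour array, named WT1 to WT4 and KO1 to KO4 after its label. The glands were whole tissue, so a lower share of myoepithelial cells and less RNA per myoepithelial cell could not be told apart. The study also collected milk after oxytocin injection, on a later day of lactation than that of these glands. The comparison below addresses only whether the transcripts of the ejection machinery differed between the genotypes.

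The share of probes well above background, which is the scanner software's own call, was 66.9% to 75.3% for WT and 66.8% to 71.0% for KO, and no spot was saturated. Zbtb7b read 9.90, 10.42, 10.13 and 10.23 on the WT arrays and was not well above background on any KO array, at least 81.5-fold lower (limma, adjusted p = 5.71e-09), so the knocked-out gene followed the labels. The 4 WT arrays lay on 1 slide and the 4 KO arrays on another, so that slide and genotype cannot be told apart in any comparison below. All 8 milk protein genes and 15 of 16 luminal epithelial genes on the array passed the filter for signal, as did all 21 basal epithelial genes.

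All 10 members could be tested, through 15 of their 16 probes. None of the 10 was called different between genotypes at an adjusted p under 0.05, against 16.5% of the 14137 genes tested (7.53% higher and 8.96% lower in KO). The WT and KO arrays overlapped for all 10, whereas they did not overlap for 24.1% of all genes. Before adjustment 1 member, Trp63, had a p under 0.05, against 36.3% of all genes. The differences of the members ran from -0.27 to 0.29 on the log2 scale, with a median of -0.05 beside -0.02 for all genes. Their median size without regard to sign was 0.08, beside 0.27 for all genes. The SE of the members ran from 0.125 to 0.328, beside a median of 0.16 for all genes. The 8 contractile genes varied together, as described below, so the 10 members are not 10 separate outcomes. All values below are log2 quantile-normalized signals, and for a gene with several probes the brightest was used.

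**Figure D1:**
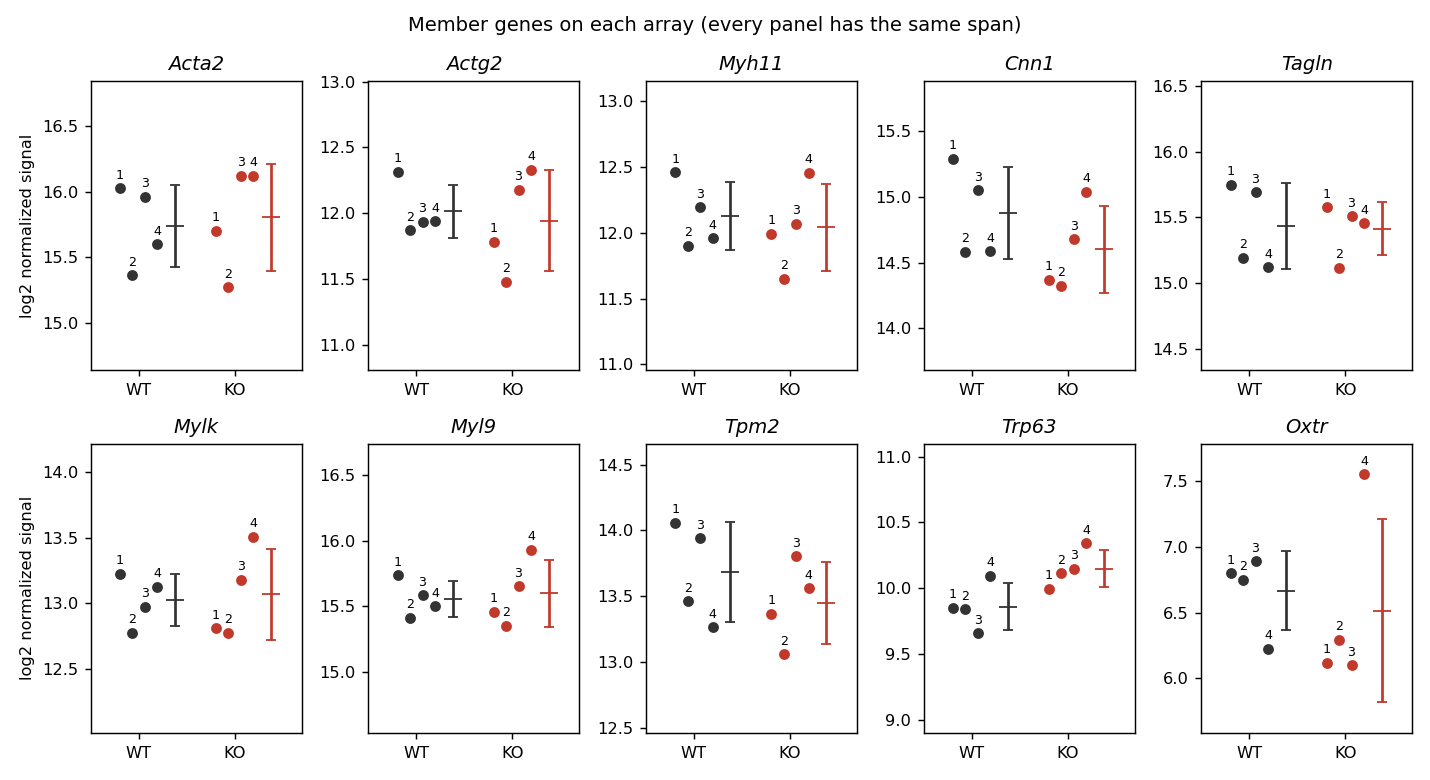
Log2 normalized signal of each member on each array, with the number of the dam beside its point, WT in black and KO in red. The bar to the right of each group is the mean ± SD of 4 arrays. WT and KO points overlap in all 10 panels, and the widest KO spread is that of Oxtr, from 6.10 to 7.55.

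Acta2 encodes smooth muscle alpha-actin, the marker by which myoepithelium is usually stained. It read 16.03, 15.36, 15.96 and 15.60 on WT1 to WT4 and 15.70, 15.28, 16.12 and 16.12 on KO1 to KO4. The lowest and the highest of the 8 arrays were both KO arrays, and the means were 15.74 ± 0.31 in WT and 15.80 ± 0.40 in KO (SD, n = 4 each). The difference was 0.07 on the log2 scale (SE 0.228, adjusted p = 0.854), with a 95% interval from -0.45 to 0.59. The probe behind these values was printed 10 times on every array, and its spots differed with an SD of 0.038 to 0.069 within an array. That covers the reading of spots only, since spots of an array share labelling and hybridization. The other probes of Acta2 differed by 0.16 and 0.09 and followed the first over the 8 arrays at r = 0.913 and 0.904.

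Actg2, the gamma-actin of smooth muscle, read 12.32, 11.87, 11.93 and 11.94 in WT and 11.78, 11.48, 12.18 and 12.33 in KO. The KO values lay on both sides of the WT values, and WT1 stood above the other WT arrays. The difference was -0.07 (SE 0.199, adjusted p = 0.819). Acta2, Actg2 and the actin genes of striated muscle encode near-identical proteins. Whether a probe also binds a relative was not checked, since probe sequences were not used here.

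Myh11 encodes the heavy chain of smooth muscle myosin, the motor of contraction. It read 12.46, 11.90, 12.19 and 11.96 in WT and 11.99, 11.65, 12.07 and 12.46 in KO. WT1 and KO4 were highest and level with each other, and KO2 was lowest. The difference was -0.09 (SE 0.193, adjusted p = 0.775).

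Myl9, the regulatory light chain of that myosin and the substrate of the kinase, had the tightest interval among the contractile genes. Its signal was 15.74, 15.41, 15.58 and 15.50 in WT and 15.46, 15.35, 15.65 and 15.93 in KO, with KO4 highest and KO2 lowest. The difference was 0.04 (SE 0.145, adjusted p = 0.862, 95% interval -0.29 to 0.37). Mylk, the kinase itself, read 13.23, 12.78, 12.97 and 13.12 in WT and 12.81, 12.78, 13.18 and 13.51 in KO. KO4 was again highest, WT2 and KO2 shared the lowest value, and the difference was 0.04 (SE 0.184, adjusted p = 0.882). Its other probe followed it at r = 0.990.

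Cnn1 (calponin), Tagln (transgelin) and Tpm2 (beta-tropomyosin) encode proteins that bind the actin filament. Cnn1 read 15.29, 14.58, 15.05 and 14.59 in WT and 14.37, 14.32, 14.68 and 15.04 in KO. WT1 was highest, the lowest values were those of KO1 and KO2, and the groups overlapped. Its difference of -0.27 was the lowest among the members and was about the size of the spread between dams (SE 0.218, adjusted p = 0.391, WT 14.88 ± 0.35, KO 14.60 ± 0.33). Tagln read 15.75, 15.19, 15.69 and 15.12 in WT and 15.58, 15.12, 15.51 and 15.46 in KO. Its WT arrays fell into a high and a low pair that enclosed 3 of the KO arrays, KO2 being level with the lowest WT array, and its difference was -0.02 (SE 0.180, adjusted p = 0.940). Tpm2 read 14.06, 13.46, 13.94 and 13.26 in WT and 13.37, 13.06, 13.80 and 13.56 in KO. WT1 was highest and KO2 lowest, with a difference of -0.23 (SE 0.221, adjusted p = 0.477) that its other probe gave as -0.25.

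Trp63 encodes p63, which maintains basal epithelial cells. It read 9.85, 9.84, 9.66 and 10.09 on the WT arrays and 9.997, 10.11, 10.15 and 10.34 on the KO arrays. Of the WT arrays, WT4 alone reached into the KO range. The means were 9.86 ± 0.18 in WT and 10.15 ± 0.14 in KO, a difference of 0.29 (SE 0.125, 95% interval 0.01 to 0.57) that did not pass after adjustment (limma, adjusted p = 0.132). KO was higher in 4 of 4 same-numbered pairs of dams. The adjusted p ran from 0.08, without WT4, to 0.274 over the alternatives tried. A dimmer Trp63 probe was well above background on 1 WT and 2 KO arrays only and was not tested. It read 3.05 ± 0.43 in WT and 3.79 ± 0.27 in KO, where the lowest signal called well above background on an array lay between 2.93 and 4.17.

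Oxtr, the oxytocin receptor, was well above background on all 8 arrays. It read 6.80, 6.75, 6.89 and 6.22 in WT and 6.12, 6.29, 6.10 and 7.55 in KO. KO1, KO2 and KO3 lay below 3 of the WT arrays and around WT4, while KO4 was the highest of the 8. The means were 6.66 ± 0.30 and 6.51 ± 0.70, and the difference was -0.15 (SE 0.328, adjusted p = 0.769). Its interval, -0.90 to 0.60, was the widest of the 10. KO4 decided the value: without it the difference was -0.50 (SE 0.175, adjusted p = 0.0858), which also did not pass.

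**Figure D2:**
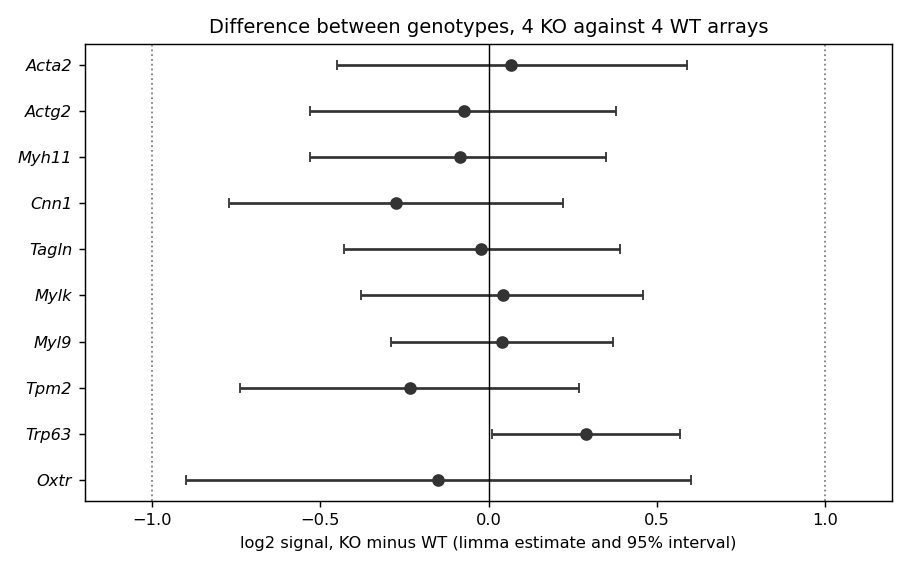
Difference between genotypes (KO minus WT, log2 signal, horizontal axis) for each member, with limma's 95% interval over 4 KO and 4 WT arrays; dotted lines mark a 2-fold change. The intervals of 9 members span 0, that of Trp63 runs from 0.01 to 0.57, and no interval reaches a dotted line.

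For all 10 members the 95% interval lay within a 2-fold change in either direction. The lower bounds went down to a KO to WT ratio of 0.537 and the upper bounds up to a ratio of 1.51. Smaller differences than these could have gone undetected with 4 arrays per genotype. The signs of Acta2, Mylk and Myl9 turned under scaling of each array to its 75th percentile, where they were -0.10, -0.05 and -0.10, and 0 of 10 members were called there too. A missed threshold does not show that a member was equal in both genotypes.

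The 8 contractile genes varied together from dam to dam. On WT1 all 8 lay above the mean of their genotype and on WT2 none did. On KO3 and KO4 all 8 lay above the mean of the KO arrays, on KO1 1 did and on KO2 none. The median deviation of the 8 genes ran from -0.24 on WT2 to 0.31 on WT1 and from -0.34 on KO2 to 0.36 on KO4. Oxtr was above its mean on WT1, WT3 and KO4 too. It departed from the contractile genes on WT2, where it deviated by 0.08, and on KO3, where it deviated by -0.42. Trp63 did not follow them on the WT arrays, where it was highest on WT4.

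**Figure D3:**
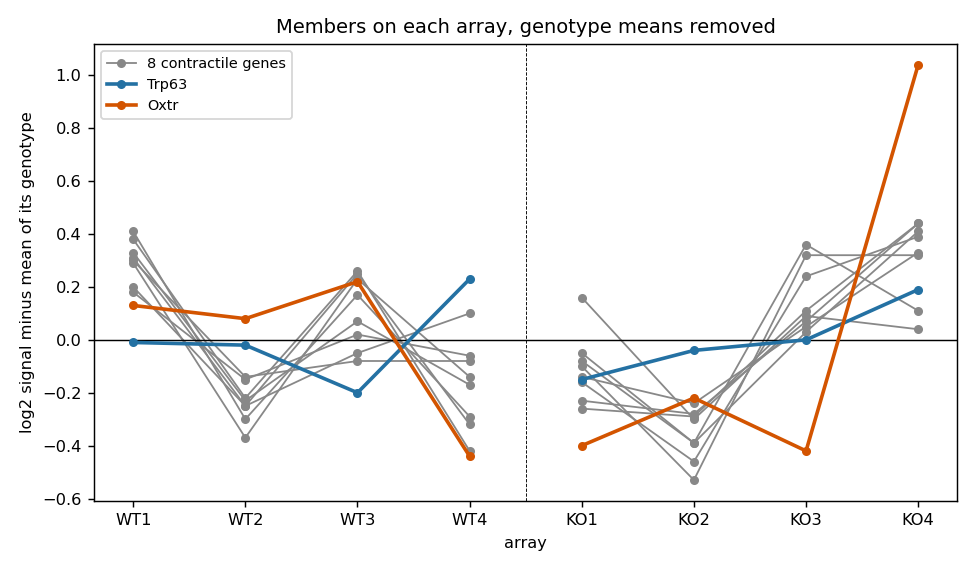
Log2 signal of each member minus the mean of its genotype (vertical axis) on each of the 8 arrays (horizontal axis), the 8 contractile genes in grey, Trp63 in blue and Oxtr in orange. The grey lines run together, high on WT1, KO3 and KO4 and low on WT2 and KO2, while Oxtr departs from them on WT2 and KO3.

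Over the 8 arrays the 28 pairs of contractile genes had a median Pearson r of 0.79, from 0.33 for Tagln with Mylk to 0.95 for Mylk with Myl9. With the genotype means removed the median was 0.84. The median r of the contractile genes with the other 14126 genes was 0.02. Oxtr correlated with the 8 genes at 0.26 to 0.70 (median 0.54) and Trp63 at -0.45 to 0.50 (median 0.06). These are descriptions over 8 arrays that shared 1 slide within each genotype and were normalized together, and any difference in the share of myoepithelial cells between glands would enter all of them.

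Among same-numbered dams the members did not point 1 way. In pair 1 KO was higher than WT for 1 of 10 members, in pair 2 for 2, in pair 3 for 5 and in pair 4 for all 10. The median difference of the 8 contractile genes was -0.44, -0.17, -0.03 and 0.41 in these pairs. Over all genes tested, KO was higher for 46.8% to 49.5% in each pair, a share that quantile normalization holds near the middle on every array.

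Among the other genes whose signal followed the mean of the standardized members most closely over the 8 arrays were Jpt1 (r = 0.966), Tshr (0.965), Pnck (0.924), Actc1 (0.919), Glipr2 (0.911), Grk5 (0.909) and Nol4l (0.908). Actc1 encodes a striated muscle actin closely related to Acta2. The genes nearest to Oxtr were Dnmt3l (0.954), Anxa6 (0.952), Dmpk (0.932), Dnajc17 (0.929) and Fgfbp1 (0.925). Since these are the top values out of all genes over 8 arrays, they describe likeness only.

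Many contractile genes of smooth muscle are read by serum response factor, which binds a motif known as the CArG box. The strict CArG box was sought on both strands in the promoters of a RefSeq table (GRCm38.p6), each running from 250 bases before to 50 bases after a gene's start. Of the 6 members with an entry (Acta2, Cnn1, Mylk, Myl9, Tpm2 and Oxtr), 1 held it, against 1.63% of 32851 promoters. That match is shown because Myl9 varied with the other contractile genes. It starts 161 bases before the gene's start, within chr2:156775293-156775322 on the plus strand, with the box in capitals.
Myl9: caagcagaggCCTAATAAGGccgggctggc
The absence of the strict box from the other 5 windows says nothing of sites outside them, nor of sites within them that depart from it.

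Around the members, 14 lists of related genes were described by their counts. The first holds the route from the receptor to contraction, of which 25 genes were tested: 2 were called higher in KO and 2 lower (16% of the list, beside 16.5% of all genes), with a median of 0.02. Orai1, the pore of calcium entry from outside the cell, read 12.32 ± 0.31 in WT and 11.42 ± 0.14 in KO, a fall of 1.86-fold (log2 -0.89, adjusted p = 0.0150), with no overlap of the arrays. Itpr1, the inositol trisphosphate receptor through which stored calcium leaves the endoplasmic reticulum, rose by 0.54 (adjusted p = 0.0236). Gna11, a G protein subunit of the Gq family to which the oxytocin receptor couples, was lower by -0.40 (adjusted p = 0.0324). Calm2, one of several genes for calmodulin, rose by 0.39 (adjusted p = 0.0347). It did not keep this call when same-numbered dams were paired by a replicate block (adjusted p = 0.0579), nor under 75th percentile scaling, where it was 0.23 (adjusted p = 0.105). Gnaq, the other main partner of the receptor, differed by 0.32 (adjusted p = 0.144). The glands were whole tissue, and which of their cells gave these differences was not tested.

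Each call of this list was lost in at least 1 fit without a dam. That of Orai1 was lost only without KO3 (7 of 8 fits kept it). Over all alternatives its difference ran from -1.01 to -0.80, with a highest adjusted p of 0.0505 (limma). The calls of Itpr1 and Gna11 were each lost without WT2, WT3, KO1, KO2 or KO3, and that of Calm2 held in 1 of 8 fits. Calls over all genes moved too, from 2331 with all dams to 767 without WT2, 756 without KO1 and 3070 without WT1. Counts of fits that kept a call, here and below, include that shift.

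Of 8 tested factors that read or assist at CArG boxes and neighbouring elements, 3 were called higher in KO and none lower (37.5% of the list, beside 16.5% of all genes). On average 6 were higher and 2 lower, with a median of 0.41. Tead3 rose by 0.77 (adjusted p = 0.0218) and Tead1 by 0.90 (adjusted p = 0.0388), both TEA domain transcription factors, and Mrtfb, a coactivator of serum response factor, rose by 0.48 (adjusted p = 0.0478). The calls of Tead1 and Mrtfb were lost with the replicate block (adjusted p = 0.0539 and 0.0750) and each held in 1 of 8 fits without a dam, while Tead3 kept its call in 4 of 8. Srf itself differed by -0.22 (adjusted p = 0.406) and Mrtfa by 0.34 (adjusted p = 0.110).

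Of 21 other genes listed as smooth muscle targets of serum response factor, 1 was called, higher in KO. That is 4.76% of the list, beside 16.5% of all genes, and the median was 0.19. The gene was Smoc1, which encodes a secreted calcium-binding matrix protein and no part of the contractile apparatus. Its place among targets of serum response factor is doubtful. It read 8.70, 7.87, 8.24 and 8.64 in WT and 10.94, 11.16, 11.01 and 9.72 in KO. All KO arrays were above all WT arrays, KO4 least so, and the rise was 5.09-fold (log2 2.35, SE 0.332, adjusted p = 0.00834), called in 8 of 8 fits without a dam. Tpm1, the alpha-tropomyosin gene, differed by 0.62 (adjusted p = 0.0593, and 0.0450 with the replicate block), and by 1.02 as the mean of its probes (adjusted p = 0.0388). Under 75th percentile scaling it differed by 0.54 (limma, adjusted p = 0.0756).

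**Figure D4:**
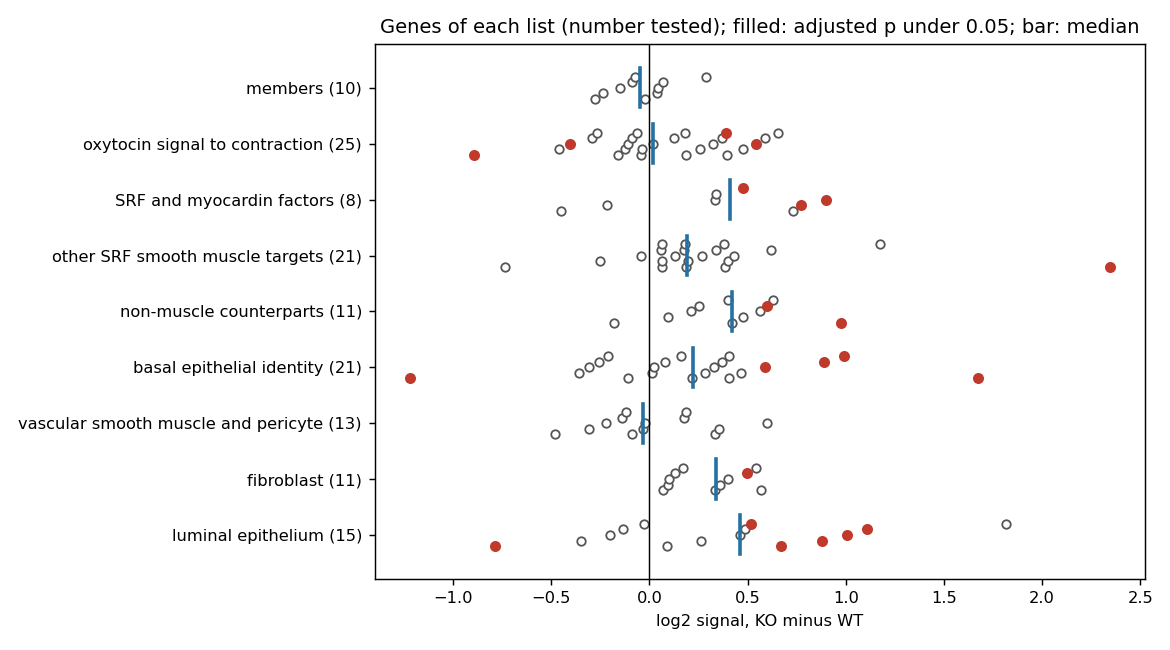
Difference between genotypes (KO minus WT, log2 signal, horizontal axis) of every tested gene of the members and of 8 of the related lists, with the number tested in brackets. Filled points have an adjusted p under 0.05 and the blue bar is the median of the list; the members have no filled point and a median of -0.05, the non-muscle counterparts a median of 0.42.

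The cytoskeletal relatives that most cells express in place of the smooth muscle forms were described next. Of 11 tested, 10 were higher in KO on average, with a median of 0.42. Those called were 2, both higher (18.2% of the list, beside 16.5% of all genes). Tagln2, the widely expressed relative of Tagln, read 11.76 ± 0.44 in WT and 12.74 ± 0.36 in KO and rose by 0.98 (adjusted p = 0.0357, called in 3 of 8 fits without a dam). Myl12a, a non-muscle regulatory light chain, rose by 0.60 (adjusted p = 0.0313, called in 1 of 8). Myh9 and Tpm4, a non-muscle myosin heavy chain and a tropomyosin, differed by 0.40 and 0.63 and missed the threshold (adjusted p = 0.0502 and 0.0506, and 0.0407 and 0.0446 with the replicate block). Actg1, the cytoplasmic gamma-actin, differed by 0.48 (adjusted p = 0.0932). Under 75th percentile scaling Myh9 was 0.25, Tpm4 0.48 and Actg1 0.32 (limma, adjusted p = 0.13, 0.0772 and 0.171). The median of the list was 0.32 there. Whether these counterparts and the members differ from each other in their response was not tested.

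The list of relatives of Oxtr and Trp63, which also holds the ligand gene Oxt, had 4 tested genes. Of them Avpr1b, a vasopressin receptor, passed the filter through WT alone, so that a lower KO signal was built in. The others, Oxt, Trp73 and Trp53, were lower in KO on average, Trp53 by only -0.05, and Oxt alone was called. With Avpr1b counted, 2 were called (50% of those tested, beside 16.5% of all genes) and the median was -0.52. Neither value carries weight as support. Oxt, the oxytocin precursor gene, read 7.05 ± 0.23 in WT and 6.42 ± 0.21 in KO, a difference of -0.63 (adjusted p = 0.0295, called in 3 of 8 fits without a dam). With normexp the difference was -0.38 (limma, adjusted p = 0.0298). The oxytocin of milk ejection comes from the pituitary, so this gland transcript does not measure its supply. Avpr1b was well above background on all 4 WT arrays and on no KO array, so it was tested only through its WT signal and its call carries no weight as support. It was at least 1.65-fold lower in KO (adjusted p = 0.0425, called in 2 of 8 fits without a dam, and 0.0969 by the methods' t-test). That limit takes, for each KO array, the higher of the probe's signal and the lowest signal called well above background there. Trp73, a relative of Trp63, differed by -0.41 (adjusted p = 0.0849).

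Of 21 genes of basal epithelial identity, 4 were called higher and 1 lower in KO (23.8% called, beside 16.5% of all genes). The median was 0.22. Krt5 and Krt14, the keratins of the basal layer, differed by -0.21 and -0.26 (adjusted p = 0.394 and 0.548). Krt17, a further basal keratin, was 2.33-fold lower in KO (log2 -1.22, adjusted p = 0.0369), a call that held in 1 of 8 fits without a dam. Those higher were Sox9, a progenitor transcription factor (0.89, adjusted p = 0.0196), Egfr, the epidermal growth factor receptor (0.59, adjusted p = 0.0196), Itgb4, the hemidesmosomal integrin (0.99, adjusted p = 0.0339), and Igfbp5, a secreted binding protein of insulin-like growth factors (1.67, adjusted p = 0.0363). Egfr kept its call in 6 of 8 fits without a dam, Sox9 in 5, Igfbp5 in 4 and Itgb4 in 1. Sox9, Egfr and Igfbp5 are also expressed outside the basal layer.

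The keratins and the contractile genes did not share 1 order of dams. On KO4, where all 10 members lay above their KO mean, Krt5 read 13.22 against 13.60 to 13.89 on the other KO arrays, and Krt14 and Krt17 were lowest there too, at 11.14 and 10.55. On WT1, where the contractile genes were high, Krt5 and Krt14 read 13.93 and 12.53, above the mean of the WT arrays.

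Markers of other cells that carry contractile genes were set beside the members. Of the vascular smooth muscle and pericyte list 13 genes were tested and 0 were called, beside 16.5% of all genes (median -0.03). Without Myh11 and Des, which other lists hold too, the summed signal of the remaining 11 genes was 13.51 to 13.78 in WT and 13.70 to 13.99 in KO. It was highest on KO4 and WT1 and lowest on WT2. The 4 defining markers (Rgs5, Pdgfrb, Cspg4 and Notch3) were well above background on all 8 arrays and gave another order. Their summed signal was 12.64, 12.52, 12.45 and 12.71 on WT1 to WT4 and 12.70, 12.56, 12.67 and 12.95 on KO1 to KO4. It was highest on KO4, where all 8 contractile genes lay above their KO mean, but lowest on WT3, where 6 of the 8 lay above their WT mean. For both sums, the part of vascular cells in the signals of the members was not tested.

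Skeletal muscle RNA was high on KO1 and KO3. Myh4, a fast skeletal myosin, read 9.48 on KO1 and 10.94 on KO3 and at most 3.18 on the other 6 arrays, where it was not well above background. Of 19 skeletal muscle genes, 14 were higher on both KO1 and KO3 than on any other array, and the summed signal of the 12 tested was 11.46 to 12.19 in WT and 12.68, 11.23, 13.67 and 11.76 on KO1 to KO4. Of the 12 tested, 1 was called (8.33%, beside 16.5% of all genes). It was Tnnt3, a troponin of fast muscle, which was lower in KO (log2 -1.28, adjusted p = 0.0367, and 0.0536 with the replicate block). Tnnt3 did not follow Myh4: it read 8.44 to 9.49 in WT, 7.55 on KO1 and 8.60 on KO3. Myh4, Ckm, Actn3 and Pvalb were well above background on KO1 and KO3 only, so the filter kept them out of the 12. On KO1 1 of the 8 contractile members, Tagln, lay above its KO mean, and on KO3 all 8 did. The part of skeletal muscle in their signals was not tested. Tpm2, which skeletal muscle expresses as well, read 13.37 on KO1 and 13.80 on KO3, and its difference was -0.21 without KO1 and -0.35 without KO3.

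**Figure D5:**
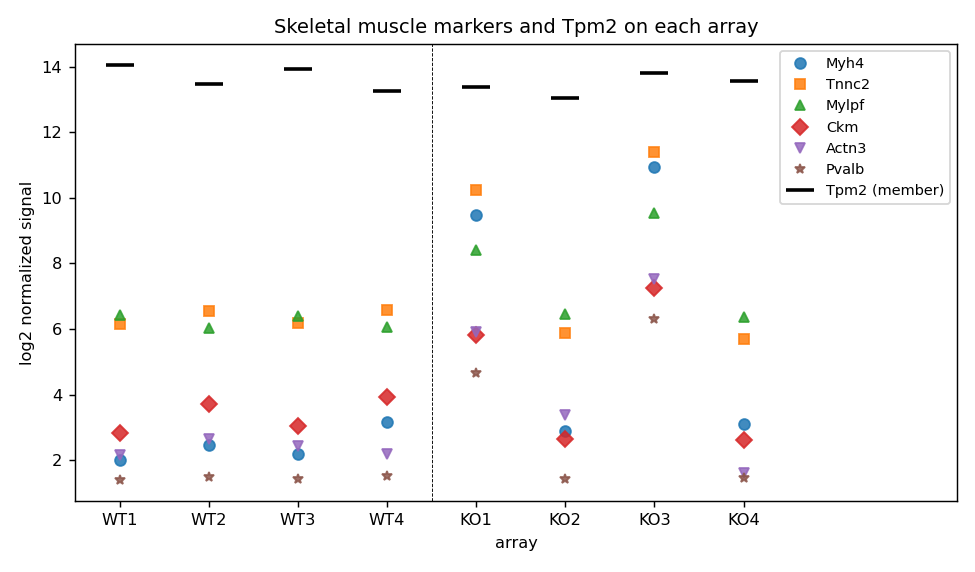
Log2 normalized signal (vertical axis) of 6 skeletal muscle markers and of the member Tpm2 on each array (horizontal axis). The 6 markers shown are among the 14 of 19 listed genes that were higher on both KO1 and KO3 than on any other array. Others of the list, such as Acta1 and Tnnt3, did not have this order. Tpm2 stays between 13.06 and 14.06 throughout.

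Of the other lists, 5 of 15 luminal genes were called higher and 1 lower (40%, median 0.46). Called higher were 2 of 10 adipocyte genes (20%, median 0.41) and 1 of 11 fibroblast genes (9.09%, median 0.34). Called lower were 2 of 11 immune genes (18.2%, median -0.21). The share of all genes called was 16.5%. No milk protein gene of 8 and no endothelial gene of 11 was called, with medians of 0 and -0.03. Several milk genes read near the top of the array, where quantile normalization gives all arrays nearly the same values. Wap, for example, read 18.475 on KO1, KO3 and KO4 alike. For such genes a missing call therefore says little. Under 75th percentile scaling the milk median was -0.14. The summed signal of the luminal list was 17.94 to 18.26 in WT and 18.35 to 18.51 in KO, that of the adipocyte list 18.23 to 18.71 and 18.70 to 19.20. The part of these differences in the members' values was not tested.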

How the data were processed

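One-colour Agilent arrays measured mammary gland RNA of 4 WT and 4 KO dams, and groups and replicate numbers came from the sample labels. The authors deposited, for each array, the spot intensity written by Agilent Feature Extraction 10.7, which had been background-subtracted and detrended within the array. A log2 table that the authors deposited beside it had been quantile-normalized in GeneSpring. It followed the scanner signals of the same array at r of 0.9985 or more and served as an alternative. The array design was annotated on mouse build mm9, so no probe coordinates are given.

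From the non-control intensities, log2 values were taken and quantile normalization applied across arrays (limma 3.58.1, R 4.3.3). Spots the software marked as outliers (64 to 100 per array) were left out and spots of a probe averaged. Symbols came from each probe's accession through a RefSeq gene table (26728 of 27094 NM probes matched). Probes had to be well above background on every array of WT, of KO or of both, the brightest probe stood for its gene, and limma tested 14137 genes with Benjamini-Hochberg adjustment, called at 0.05. All p-values measure the spread between these 4 dams per genotype, whose number limits the precision. Intervals are limma's at 95%. Summed signals are log2 of the sum of unlogged signals. The tests were tested on simulated data.

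The members and gene lists were chosen with earlier results of these data known. The text names all members, up to 4 genes of smallest p from a list, partners and counterparts of members, and the genes most like the members, of which 1 is not reported here. Same-numbered arrays deviated together over all genes (r = 0.219, 0.165, 0.304 and 0.283), so the number was also fitted as a block; where the pairing comes from is not given in the sources used here. Further alternatives were 75th percentile scaling, normexp (offset 50, on the median spot and background signals, since no mean spot signal was in the files), the authors' table, no filter, a filter on all 8 arrays, the mean of a gene's probes, unmatched probes kept, the methods' t-test, trended robust variances, each member probe alone, and each dam left out.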

Additional observations from a re-analysis of the deposited data

Results flagged for a closer look

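In 76 groups of 4 arrays (38 named genes in 2 genotypes), 6 held an array whose gap to the next one took up most of the group's range, where chance gives about 1 in 20. Among the members, Actg2 was 12.32 on WT1 against 11.87 to 11.94 on the other WT arrays, and Oxtr was 7.55 on KO4 against 6.10 to 6.29 on the other KO arrays. On KO4, Smoc1 was low at 9.72 (others 10.94 to 11.16), Krt17 at 10.55 (11.35 to 11.47) and Krt14 at 11.14 (11.88 to 11.93). Tpm4 was low on KO2 at 13.76 (others 14.24 to 14.29). Of the 6, 4 were thus values of KO4.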

How the results depend on the processing

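By limma and by the methods' t-test, 0 of 10 members were called under any alternative, each dam left out included; 1 had an unadjusted p under 0.05 in the analysis reported. Their alternative values kept their sign in 177 cases and turned it in 18, none past the threshold; the causes were not tested. Cnn1, Tpm2, Trp63 and Oxtr kept their sign throughout. Under 75th percentile scaling Acta2 was -0.10, Mylk -0.05 and Myl9 -0.10, and all 8 contractile genes were lower in KO. With a dam left out, Acta2 ran from -0.06 (without WT2) to 0.24 (without KO2), Actg2 from -0.20 to 0.08, Myh11 from -0.22 to 0.04, Tagln from -0.13 to 0.08, Mylk from -0.10 to 0.14 and Myl9 from -0.07 to 0.12. For Actg2, Myh11, Mylk and Myl9 the lowest value was that without KO4, and for all 6 the highest was that without KO2, shared for Tagln with WT1. By its other probe alone Mylk was -0.01. Genes of the related lists called numbered 29, with 15 without a filter, 10 by the methods' t-test and 4 (without KO3) to 40 (without WT1) with a dam left out. All genes called numbered 2331, with 1389 by the methods' t-test and 515 (without KO3) to 3070 (without WT1) with a dam left out; fewer arrays are tested in each such fit. With the replicate number as a block, 31 related genes and 2762 genes in all were called, and of 38 named genes 4 lost and 3 gained a call, as given beside them; it changed no other call of theirs. No named related gene changed sign in 503 alternative values. Without a filter on dim probes, which tests 18717 genes, Tead1, Mrtfb, Tagln2, Avpr1b, Itgb4, Igfbp5, Krt17 and Tnnt3 lost their call, and by the methods' t-test these and Myl12a and Oxt did. With normexp Mrtfb was 0.25 and Myl12a 0.36, both without a call, and Avpr1b was -0.40. As means of their probes Calm2 was 0.35 and Mrtfb 0.35, neither called. Zbtb7b was -8.58, and -4.25 with normexp; the filter on all 8 arrays gives no value for it. Signal did not limit the members, 15 of whose 16 probes were above background, but only 4 dams per genotype were measured.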

Other observations

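Some genes close to the members were too dim to test. Myocd, the coactivator of serum response factor in smooth muscle, read 4.03, 4.63, 1.60 and 4.47 on the WT arrays and 3.16, 2.95, 3.12 and 3.32 on the KO arrays, and was well above background on 3 WT arrays and 0 KO arrays. Avpr1a, a vasopressin receptor related to Oxtr, was well above background on 3 arrays of each genotype, with 3.59 to 5.01 in WT and 3.93 to 4.77 in KO. Avpr2 was so on 1 WT array only.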
